A study of Homo sapiens with 6 samples.

Results

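The 9 genes described here encode enzymes of the pentose phosphate pathway and enzymes that make NADPH or its precursor NADP+: PGD, PGLS, RPIA, RPE, TKT, TALDO1, ME1, IDH1 and NADK. They were taken by name from the 23686 genes counted, with earlier results of these data known, and all 9 had enough reads to be tested. They are not every enzyme of the pathway. RNA was sequenced from 6 samples of HEK293, an established human embryonic kidney line, in which the sampled cells carried GFP and grew in high-glucose medium with serum. In the co-culture group (3 samples), GFP-positive cells had spent 10 h beside HEK293 cells carrying DAAO, which the labels describe as producing reactive oxygen species (ROS), with 25 µM D-alanine. DAAO usually stands for D-amino acid oxidase, which releases hydrogen peroxide from D-amino acids. The control group (3 samples) was labelled Wt controls and control for treatment. Both groups carried GFP and were sorted for it. The labels repeat a single treatment text for all 6 samples, so they do not say whether controls received D-alanine or had partner cells. Nothing in the labels says that the samples of a group came from separate cultures, so the p-values below measure the spread between these samples, which may be technical.

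NADPH is the electron donor that glutathione reductase and the thioredoxin reductases use to regenerate the cell's peroxide-removing thiols. The oxidative branch of the pentose phosphate pathway makes NADPH from glucose 6-phosphate, and the non-oxidative branch interconverts the resulting sugar phosphates, supplying ribose for nucleotides or returning carbon to glycolysis. Malic enzyme and isocitrate dehydrogenase in the cytosol make NADPH from other substrates, and NAD kinase supplies the NADP+ that all of them reduce.

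The libraries held between 19091085 and 36250314 reads assigned to genes on the reverse strand. One read was worth 0.0276 to 0.0524 CPM, reads scaled to a common library total, before scaling, and each of the 9 genes had at least 578 reads in every library. Reads on the forward strand, where the kit should give few, made up a median of 0.124% and 0.211% per well-covered gene in co-culture libraries 2 and 3 and of 1.57% to 1.75% in the other 4 libraries, so co-culture library 1 sat with the controls in this measure. Of 6 genes chosen as marks of HEK293 (PAX2, VIM, KRT8, KRT18, SOX11 and LHX1), all 6 were expressed, at mean levels from 7.19 to 1123 CPM, and VIM alone passed the test between the groups (log2 fold change 0.40, edgeR adjusted p = 0.00793). The groups were also apart in KRT18 (0.25, edgeR adjusted p = 0.0996) and SOX11 (-0.21, edgeR adjusted p = 0.0749). They overlapped in PAX2, KRT8 and LHX1. Over all tested genes 29.3% were apart, in either direction. PTPRC, ALB, PECAM1, LYZ and INS, marks of other cell types, had at most 5 reads in any library, whereas COL1A1, a fibroblast mark, was at 31.0 to 40.2 CPM in the controls and 39.2 to 44.4 CPM in co-culture (edgeR adjusted p = 0.131); its part in the results was not tested. DAO, the human D-amino acid oxidase gene, had 0 reads in all 6 libraries, which allows up to 0.0828 to 0.157 CPM for counting error only, and a transgene of another sequence would not be counted there.

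None of the 9 enzymes passed an adjusted p of 0.05 between co-culture and control in edgeR's quasi-likelihood test with Benjamini-Hochberg adjustment over 14582 genes. Over all tested genes 4.83% passed. DESeq2 and limma-voom also called 0 of the 9, against 7.52% of the genes with an adjusted p in DESeq2 (1032 genes) and 4.63% in limma-voom (675 genes). TKT and ME1 had the largest positive values, 15.4% and 17.8% above the controls, and these were 2 of the 9 enzymes with an unadjusted p under 0.05. Over all genes 23.2% had an unadjusted p under 0.05, and 11.7% had one with a higher level in co-culture. In TKT, ME1 and IDH1 every co-culture library stood above every control library, and no enzyme had all its co-culture libraries below the controls. Over all tested genes 14.3% showed the first pattern and 15% the second. The median log2 fold change of the 9 enzymes was 0.05, with 6 above 0 and 3 below, and the median over all tested genes was 0.00, with 49.6% above 0. In bulk RNA, fewer cells with a transcript and less of it per cell cannot be told apart.

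**Figure D1:**
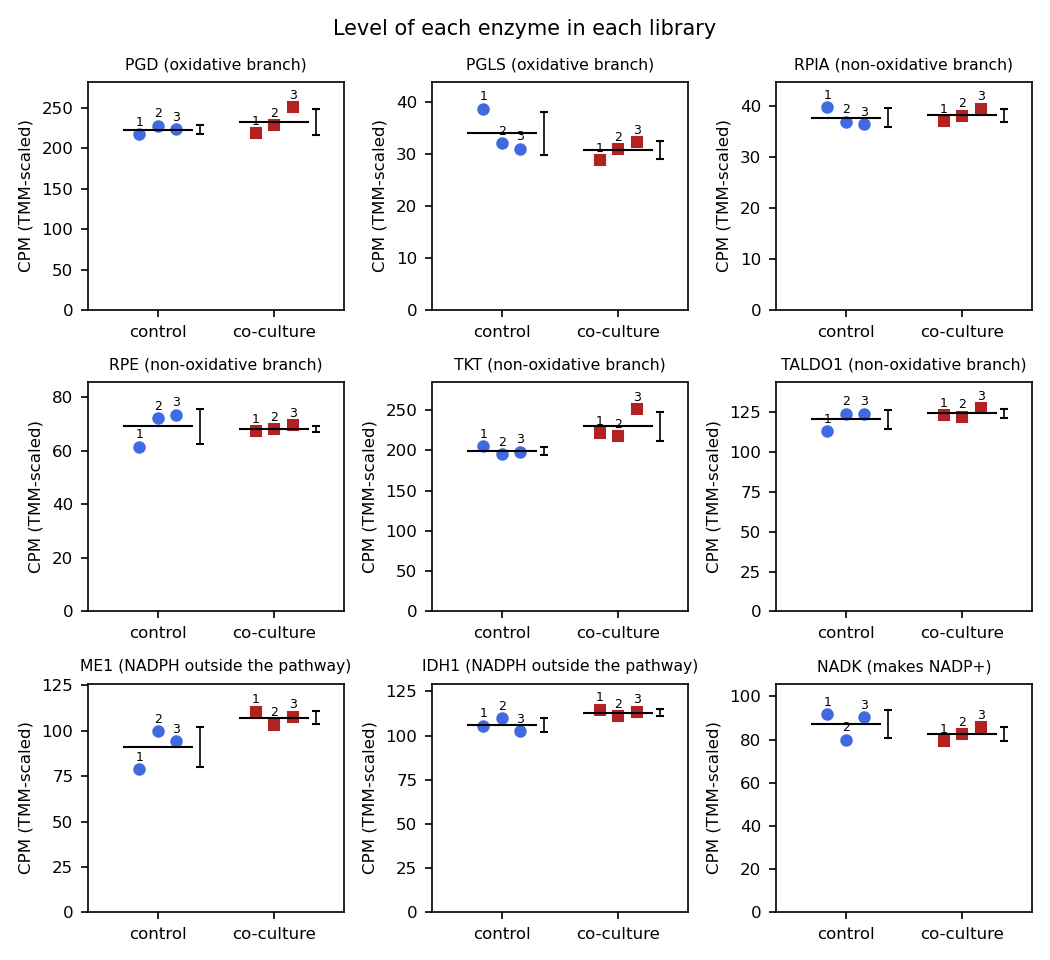
TMM-scaled CPM (vertical axis, from 0) of each of the 9 enzymes in the 3 control libraries (circles) and the 3 co-culture libraries (squares), numbered by replicate, with the group mean as a line and the SD as a bar. The groups are apart in TKT, ME1 and IDH1 and overlap in the other 6 enzymes.

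In the oxidative branch, PGLS hydrolyses 6-phosphogluconolactone and PGD then oxidises 6-phosphogluconate to ribulose 5-phosphate, which yields NADPH. PGD stood at 217, 228 and 223 CPM in control libraries 1, 2 and 3 and at 218, 228 and 250.2 CPM in co-culture libraries 1, 2 and 3. Co-culture library 3 was the highest and the other 2 co-culture libraries lay near the controls, so the groups overlapped. The means were 223 ± 5.37 and 232 ± 16.4 CPM (SD, n = 3 each). This gave a log2 fold change of 0.06 (95% interval -0.08 to 0.21, edgeR adjusted p = 0.609), which was 0.01 without co-culture library 3 and 0.11 without co-culture library 1. PGLS stood at 38.8, 32.2 and 31.1 CPM in the controls and at 28.9, 31.1 and 32.4 CPM in co-culture. Control library 1 was above the rest and the other 5 libraries lay close together. The log2 fold change of PGLS was -0.14 (95% interval -0.35 to 0.06, edgeR adjusted p = 0.396), and without control library 1 it was -0.03. Summed over PGD and PGLS, the branch held 257 ± 2.84 CPM in the controls and 263 ± 18.0 CPM in co-culture (SD, n = 3 each).

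The non-oxidative branch starts from ribulose 5-phosphate, which RPIA converts to ribose 5-phosphate and RPE to xylulose 5-phosphate. RPIA stood at 39.7, 36.9 and 36.4 CPM in the controls and at 36.9, 38.1 and 39.4 CPM in co-culture. These ranges nearly coincide, and the log2 fold change was 0.02 (95% interval -0.13 to 0.17, edgeR adjusted p = 0.895). RPE stood at 61.5, 72.0 and 73.5 CPM in the controls and at 67.2, 67.9 and 69.4 CPM in co-culture. All 3 co-culture libraries fell between control library 1 and the other 2 controls, with a log2 fold change of -0.02 (95% interval -0.18 to 0.15, edgeR adjusted p = 0.915). The signs of both values turned under other settings. RPE shares its locus with KANSL1L on the opposite strand in GENCODE release 29. Over the 6 libraries RPE had 9770 reverse-strand reads and 368 forward-strand reads, but 7589 when strand was ignored. Reads over both genes would then be dropped as ambiguous, but such reads were not counted here and the cause was not tested.

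TKT and TALDO1 move carbon units between sugar phosphates and connect the branch to glycolysis, TKT as a thiamine-dependent transketolase and TALDO1 as a transaldolase. TKT stood at 205, 195 and 198 CPM in the controls and at 221, 218 and 251 CPM in co-culture. Every co-culture library was above the highest control, and co-culture library 3 was highest. The means were 199 ± 5.13 and 230 ± 18.2 CPM (SD, n = 3 each). The log2 fold change was 0.21 (SE 0.07, 95% interval 0.06 to 0.36), with an unadjusted p of 0.0109 and an edgeR adjusted p of 0.101. Without control library 1 TKT passed, at a log2 fold change of 0.23 (edgeR adjusted p = 0.0136), in a fit where 20.8% of all tested genes passed. Its adjusted p over all 13 other settings ran from 0.0136 to 0.568. Without co-culture library 3 the log2 fold change was 0.14 (edgeR adjusted p = 0.252). TALDO1 stood at 113, 124 and 124 CPM in the controls and at 123, 122 and 128 CPM in co-culture. Control library 1 was the low one and the groups overlapped, with a log2 fold change of 0.05 (95% interval -0.09 to 0.18, edgeR adjusted p = 0.686). Without control library 1 it was 0.00. Summed over the 4 enzymes of the branch, the level was 426 ± 6.46 CPM in the controls and 461 ± 23.2 CPM in co-culture (SD, n = 3 each). That sum includes TKT, with means of 199 and 230 CPM, the only enzyme of the 4 whose groups did not overlap.

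Outside the pathway, ME1 makes NADPH in the cytosol by converting malate to pyruvate. It stood at 78.9, 99.95 and 94.3 CPM in the controls and at 111, 103 and 108 CPM in co-culture. The groups did not overlap, and control library 1 was far below the other 2 controls. The means were 91.0 ± 10.9 and 107 ± 3.63 CPM (SD, n = 3 each). The log2 fold change was 0.24 (SE 0.08, 95% interval 0.06 to 0.42), with an unadjusted p of 0.0152 and an edgeR adjusted p of 0.119. Without control library 1 it was 0.15 (edgeR adjusted p = 0.0595), a value 1 library moved by over 1.5 times. ME1 did not pass in any of the 13 other settings, where the adjusted p ran from 0.0595 to 0.399.

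IDH1 oxidises isocitrate to 2-oxoglutarate in the cytosol and peroxisomes, which also yields NADPH. It stood at 106, 110.0 and 103 CPM in the controls and at 115, 111 and 114 CPM in co-culture. The lowest co-culture library lay just above the highest control, and under scaling by total counts, where 10.7% of all tested genes were apart in this direction, the groups overlapped for IDH1 and not for TKT and ME1. The means were 106 ± 3.75 and 113 ± 1.92 CPM (SD, n = 3 each), and the log2 fold change was 0.09 (95% interval -0.03 to 0.21, edgeR adjusted p = 0.344). IDH1 has an antisense partner with a row of its own, IDH1-AS1. Over all libraries 1.81% of the stranded reads over IDH1 lay on the forward strand, from 0.214% to 3.33% in single libraries. The median well-covered gene had 0.124% to 1.75% by library, and the part of IDH1-AS1 was not tested. NADK phosphorylates NAD+ to NADP+. It stood at 91.9, 79.9 and 90.3 CPM in the controls and at 79.3, 82.4 and 85.8 CPM in co-culture. The groups overlapped, with a log2 fold change of -0.08 (95% interval -0.23 to 0.07, edgeR adjusted p = 0.511). It was -0.14 without control library 2 and -0.05 without control library 1 or co-culture library 1.

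**Figure D2:**
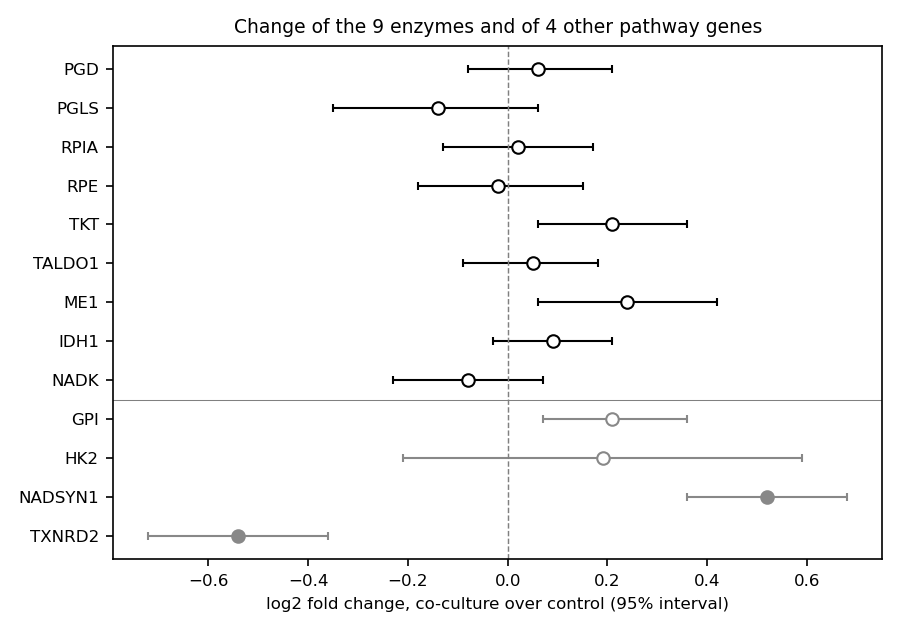
Log2 fold change of co-culture over control (horizontal axis) with its 95% interval for the 9 enzymes (black) and for GPI, HK2, NADSYN1 and TXNRD2 (grey), with filled points at an edgeR adjusted p under 0.05. Among the enzymes only the intervals of TKT (0.06 to 0.36) and ME1 (0.06 to 0.42) lie above 0, and the filled points are NADSYN1 and TXNRD2.

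The 95% intervals are not adjusted for the number of genes. They come from the fit without a strand-class term and rest on the spread between these samples, which may be technical. They thus describe these libraries and do not bound the change in separate cultures. As percent changes from the control level, the interval of PGD ran from -5.52% to 15.3%, that of TALDO1 from -5.74% to 13.0%, that of RPIA from -8.76% to 12.6% and that of RPE from -11.8% to 10.7%. The interval of IDH1 ran from -2.02% to 16.1%, that of NADK from -15.0% to 4.95% and that of PGLS from -21.3% to 4.57%. The intervals of TKT (4.10% to 28.0%) and ME1 (3.92% to 33.6%) lay above 0. The widest upper bound of the 9 was thus that of ME1 and the lowest bound that of PGLS. These bounds depend on both the value and its spread. In the controls the coefficient of variation was 12.3% for PGLS and 12.0% for ME1, against 2.41% for PGD and 2.58% for TKT, while in co-culture it was highest for TKT (7.93%) and PGD (7.05%), with 5.67% for PGLS and 3.38% for ME1.

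These values were also read by single library and by the strand measure. Any library of a group of 3 is on average the lowest or highest of its group for 6 of 9 genes. Control library 1 was so for 8 of the 9 enzymes, co-culture libraries 1 and 3 for 7 each, control libraries 2 and 3 for 5 each and co-culture library 2 for 4. Control library 1 was lowest for PGD, TALDO1, RPE and ME1 and highest for PGLS, RPIA, TKT and NADK. Co-culture library 3, the deepest library at 36250314 reads, was highest of its group for 7 enzymes and lowest for 0. Co-culture library 1 was highest for 2 and lowest for 5, and co-culture library 2 was highest for 0 and lowest for 4. The part of depth in this was not tested. Co-culture library 1, the 1 co-culture library with a forward-strand share like that of the controls, stood above all 3 controls for TKT (221 against at most 205 CPM), ME1 (111 against at most 99.95 CPM) and IDH1 (115 against at most 110.0 CPM). It stood below all 3 controls for PGLS (28.9 against at least 31.1 CPM) and NADK (79.3 against at least 79.9 CPM). A fit with a term for this strand class rests the group effect on that library, and 0.199% of all tested genes passed in it. There TKT had a log2 fold change of 0.15 (edgeR adjusted p = 0.568), ME1 of 0.28 (edgeR adjusted p = 0.399) and IDH1 of 0.11 (edgeR adjusted p = 0.628). PGD stood at -0.03 in that fit.

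**Figure D3:**
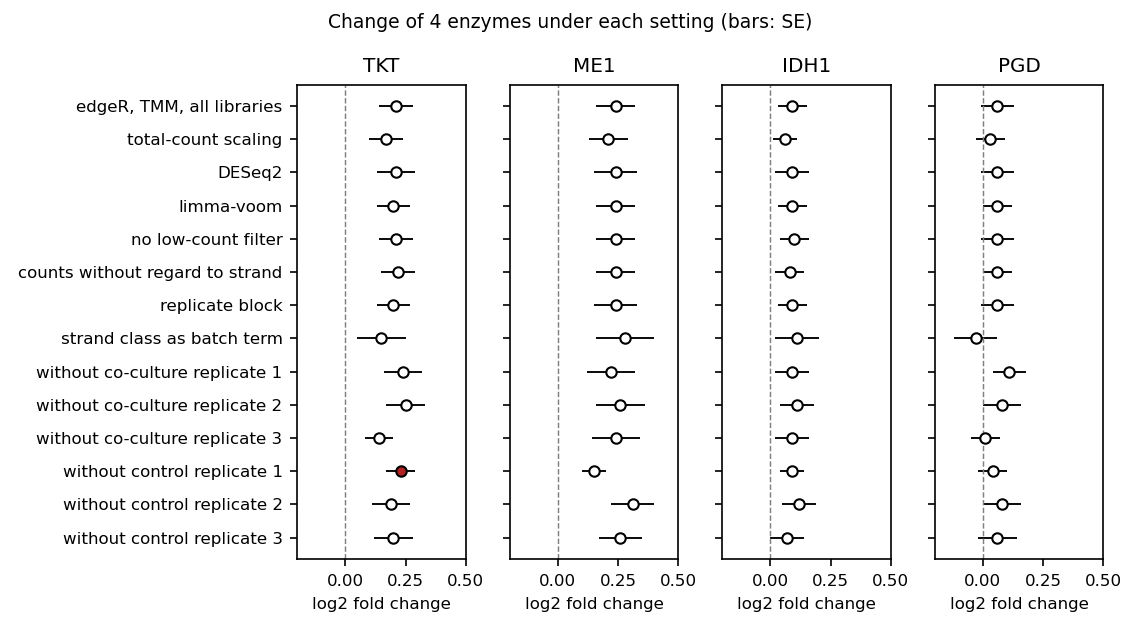
Log2 fold change (horizontal axis, bars of 1 SE) of TKT, ME1, IDH1 and PGD in the analysis of all libraries with edgeR and TMM (top) and under each of the 13 other settings, with filled points at an adjusted p under 0.05. TKT, ME1 and IDH1 stay above 0 throughout, from 0.14 to 0.25, 0.15 to 0.31 and 0.06 to 0.12, and the 1 filled point is TKT without control library 1.

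The upstream sequences of the 3 enzymes whose groups did not overlap are shown with matches to the core of the antioxidant response element. NRF2, an oxidant-responsive transcription factor, binds such elements, and its part in these values was not tested. The sequences are the 250 bases before the annotated start, 5′ to 3′, from RefSeq on GRCh38.p14, and all 9 enzymes matched an entry there by symbol. The core element was searched as TGACNNNGC on both strands, and capitals mark a match. For IDH1, which has 2 annotated starts, the window with a match is shown.
ME1 (chr6:83431052-83431301, minus strand): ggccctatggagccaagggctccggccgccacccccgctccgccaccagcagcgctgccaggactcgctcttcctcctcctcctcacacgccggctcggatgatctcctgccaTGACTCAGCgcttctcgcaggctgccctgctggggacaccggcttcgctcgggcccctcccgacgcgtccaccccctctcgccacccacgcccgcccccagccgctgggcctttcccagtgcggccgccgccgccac
TKT (chr3:53256023-53256272, minus strand): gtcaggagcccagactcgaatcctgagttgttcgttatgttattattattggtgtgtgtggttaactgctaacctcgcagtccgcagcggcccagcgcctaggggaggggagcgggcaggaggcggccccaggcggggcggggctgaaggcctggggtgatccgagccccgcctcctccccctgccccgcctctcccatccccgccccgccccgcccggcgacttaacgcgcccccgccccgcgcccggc
IDH1 (chr2:208255072-208255321, minus strand): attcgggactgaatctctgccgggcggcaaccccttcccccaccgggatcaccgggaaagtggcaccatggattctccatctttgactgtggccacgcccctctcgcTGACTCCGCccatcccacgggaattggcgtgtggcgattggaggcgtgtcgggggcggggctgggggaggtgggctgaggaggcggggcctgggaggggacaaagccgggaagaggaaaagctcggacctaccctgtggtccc

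The ME1 match, TGACTCAGC, begins 137 bases before the start, and a further core match lies after the start, outside the bases shown. Its first 7 letters also match the AP-1 motif, searched as TGANTCA, so both motifs overlap there. The IDH1 match, TGACTCCGC, begins 143 bases before its start. TKT had no match to the core element in its window, which also held neither AP-1 nor the E-box CACGTG. Over windows of 300 bases, from 250 before to 50 after each start, 4 of the 9 enzymes had a core match: ME1, IDH1, PGD (TGACATTGC on the opposite strand) and RPE (TGACAGCGC). These lay in 4 of the 12 windows of the enzymes, and 13.3% of the 35116 windows of all genes held one. AP-1 was found in 7.71% of all windows and, among the enzymes, in that of ME1 alone. The E-box was found in 7.26% of all windows and, among the enzymes, in that of NADK alone. A match describes letters and shows no binding, and of the 4 enzymes with a core match ME1 and IDH1 had non-overlapping groups while PGD and RPE overlapped.

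Levels can be compared between enzymes only per transcript length, here CPM per kb of the longest APPRIS principal transcript in GENCODE release 29, which may differ from the annotation behind the counts. On that scale PGD was the most abundant, with a control mean of 118 CPM per kb, followed by TALDO1 at 89.5, TKT at 66.2 and IDH1 at 43.4. The ranges of these 4 over the 6 libraries did not overlap each other or the rest. PGLS followed at 33.1 CPM per kb, with a range that overlapped those of ME1, NADK and RPE. ME1, NADK and RPE had control means of 27.0, 27.0 and 26.9 CPM per kb, with overlapping ranges, and RPIA was lowest at 20.4, below the range of RPE. Levels per length thus placed PGD above PGLS within the oxidative branch, and TALDO1 and TKT above the isomerase RPIA and the epimerase RPE.

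**Figure D4:**
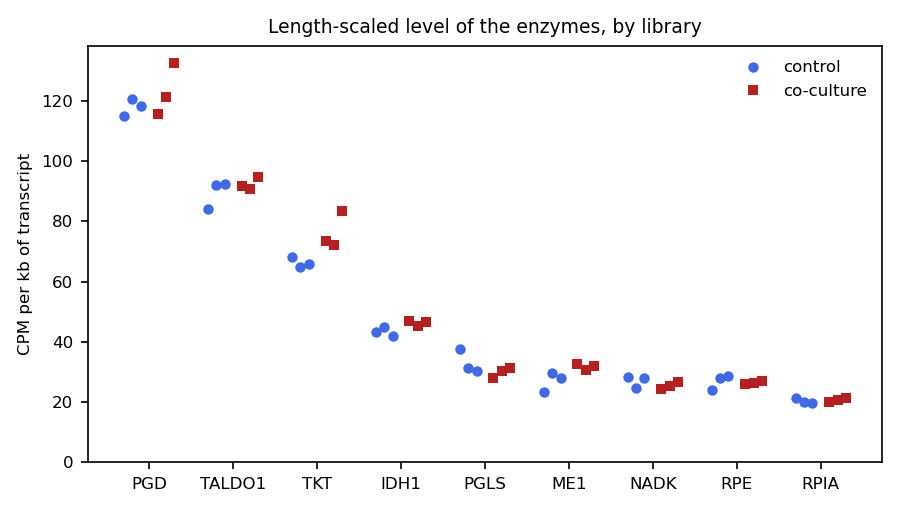
CPM per kb of transcript (vertical axis, from 0) of the 9 enzymes in each control library (circles) and co-culture library (squares), ordered by control mean. The order runs from PGD at 118 to RPIA at 20.4 CPM per kb, and the ranges of PGLS, ME1, NADK and RPE overlap each other.

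Summed over the 9 enzymes, the level was 952, 977 and 974 CPM in the controls and 1000.2, 1002 and 1077 CPM in co-culture. Co-culture library 3 was the highest, and the other 2 co-culture libraries were closer to the controls than to it. The 3 genes whose log2 CPM followed the mean standardised level of the enzymes most closely over the 6 libraries were IMPDH1 (Pearson r 0.988), NT5DC2 (0.982) and SFXN4 (0.973), out of 11638 genes with a mean of at least 5 CPM. With 6 points that share library scaling, the highest of so many correlations is a description only. The mean standardised log2 level itself was 0.86 in co-culture library 3, while the remaining 5 libraries ranged from -0.35 to 0.01.

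The genes around the pathway were read from 3 lists with 47 genes, of which 43 were tested. Of these, 1 was higher and 1 lower at an edgeR adjusted p under 0.05, against 2.66% higher and 2.17% lower over all tested genes. These shares are 388 and 316 genes, and scaling by total counts gave 310 higher and 572 lower. The list genes that passed were NADSYN1 and TXNRD2. NADSYN1, the glutamine-dependent synthetase that completes NAD+ synthesis from nicotinic acid or tryptophan, stood at 25.9, 25.5 and 28.9 CPM in the controls and at 37.8, 38.7 and 38.9 CPM in co-culture. The groups were far apart and the co-culture libraries nearly equal. NADSYN1 rose by 0.52 on the log2 scale (SE 0.07, edgeR adjusted p = 0.00470), an increase of 43.5% (95% interval 28.2% to 60.6%). It kept an adjusted p under 0.05 in 11 of 13 other settings and lost it without control library 2 (0.49, edgeR adjusted p = 0.0512) and with the strand-class term (0.50, edgeR adjusted p = 0.163). Its adjusted p lay between 7.37e-06 and 0.163 in those 13 settings.

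TXNRD2, the mitochondrial thioredoxin reductase and thus a consumer of NADPH, stood at 32.0, 33.4 and 33.1 CPM in the controls and at 21.8, 20.9 and 24.8 CPM in co-culture. All 3 co-culture libraries were well below all 3 controls. TXNRD2 fell by 0.54 on the log2 scale (SE 0.08, edgeR adjusted p = 0.00669), a change of -31.2% (95% interval -39.3% to -21.9%). It lost the call in 4 of 13 other settings: without co-culture library 1 (-0.51, edgeR adjusted p = 0.0542), without co-culture library 2 (-0.49, 0.0657), without control library 2 (-0.53, 0.0602) and with the strand-class term (-0.59, 0.159). Its adjusted p lay between 3.58e-05 and 0.159 in those 13 settings. TXNRD1, another thioredoxin reductase on the list, is named after its values were seen. The means of TXNRD1 were 219 ± 19.4 CPM in the controls and 222 ± 1.14 CPM in co-culture (SD, n = 3 each). Its log2 fold change was 0.02 (95% interval -0.13 to 0.17, edgeR adjusted p = 0.892).

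**Figure D5:**
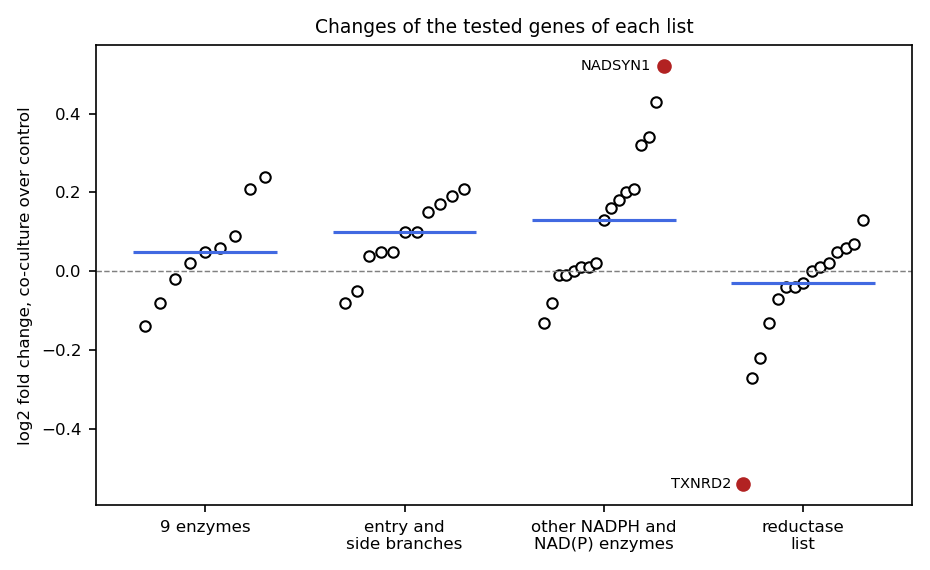
Log2 fold change of co-culture over control (vertical axis) for each tested gene of the 9 enzymes and of the 3 pathway lists, sorted within each list, with the list's median as a line and filled points at an edgeR adjusted p under 0.05. The medians are 0.05, 0.10, 0.13 and -0.03, and NADSYN1 and TXNRD2 are the 2 filled points.

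Of the 14 genes at the entry and side branches of the pathway, 11 were tested, 9 had a log2 fold change above 0, and none passed, with a median of 0.10. By unadjusted p under 0.05 in edgeR there were 3 such genes, all higher in co-culture, where 11.7% of all tested genes were: GPI, DERA and PRPS2, named after their values were seen. By DESeq2's adjusted p there was 1, GPI, where 7.52% of the genes with an adjusted p passed. By limma-voom's (4.63% of all tested genes) there were 0. GPI interconverts glucose 6-phosphate and fructose 6-phosphate, where the pathway leaves and rejoins glycolysis. It stood at 695, 712 and 709.9 CPM in the controls and at 782, 791 and 878 CPM in co-culture, without overlap (log2 fold change 0.21, 95% interval 0.07 to 0.36, edgeR adjusted p = 0.0911). It passed without control library 1 (0.20, edgeR adjusted p = 0.0184) and in DESeq2 (0.21, adjusted p = 0.0238), and its adjusted p over 13 settings ran from 0.0184 to 0.565. HK2, a hexokinase that makes glucose 6-phosphate, stood at 63.5, 43.4 and 37.8 CPM in the controls and at 52.5, 55.5 and 56.9 CPM in co-culture. Control library 1 was above all co-culture libraries and the other 2 controls below them, and 11.6% of the stranded reads over HK2 lay on the forward strand. Its log2 fold change of 0.19 (edgeR adjusted p = 0.545) became 0.44 without that library (edgeR adjusted p = 0.000345) and 0.04 without control library 3 (edgeR adjusted p = 0.889). Over 13 settings the adjusted p of HK2 ran from 0.000345 to 0.889.

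Of the 18 other genes that make NADPH or handle NAD and NADP, 17 were tested, 12 had a log2 fold change above 0, and the median was 0.13. NADSYN1 was the 1 gene that passed. The third list held 15 reductases, nearly all of which use NADPH. SRXN1 (log2 fold change 0.13, edgeR adjusted p = 0.271, groups apart) is on it although sulfiredoxin works with ATP and a thiol donor. All 15 were tested, 6 had a log2 fold change above 0 and 9 below, the median was -0.03, and TXNRD2 alone passed. Without SRXN1, 5 of 14 were above 0 and the median was -0.03. GSR, which reduces glutathione, was at a log2 fold change of -0.04 (95% interval -0.16 to 0.08, edgeR adjusted p = 0.715). GSR is named after its values were seen, as is CBR1, a carbonyl reductase that stood just outside the threshold. CBR1 was at 78.6, 75.0 and 73.5 CPM in the controls and at 64.8, 64.0 and 65.4 CPM in co-culture, which gave a log2 fold change of -0.22 with an SE of 0.06 (edgeR adjusted p = 0.0538). It passed with scaling by total counts, in DESeq2 and without control library 1. In that last setting, where 20.8% of all tested genes passed, 10 of the pathway genes did, 8 higher and 2 lower.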

How the data were processed

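The authors deposited raw read counts per gene, 1 file per sample, in the layout of STAR's gene counts (4 summary lines, then counts without regard to strand, on the forward and on the reverse strand). STAR 2.53a, FastQC and build hg18 are named, per the submitters' processing notes; the annotation is not given in the sources used here. The library kit was stranded, per the labels' protocols. Reverse-strand counts were used. The summary lines, left out of library sizes, took 6.48% to 8.42% (multimapping), 14.8% to 17.7% (no gene), 1.22% to 1.68% (unmapped) and 0.835% to 1.01% (ambiguous) of the reads. Multimapping reads are not counted per gene, so genes with near-identical copies may be undercounted.

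Groups and replicate numbers came from the titles. Libraries of a group differed by far more than sampling noise (chi-square per degree of freedom 4.56 to 17.7), so none was taken as a copy of another. Each counted as 1 sample, although this does not show that they came from separate cultures. The comparison was fitted over all genes in edgeR 4.0.16 (R 4.3.3): filterByExpr at a minimum count of 10 left 14582 genes, with TMM scaling, robust quasi-likelihood fits and Benjamini-Hochberg adjustment at 0.05. SEs were taken as the size of the log2 fold change over the root of its F statistic, and CPM are given after TMM scaling. The alternatives were total-count scaling, DESeq2 1.42.0, limma-voom (limma 3.58.1), no low-count filter, counts without regard to strand, a replicate block, a strand-class term (libraries under 0.5% forward-strand reads against the rest) and leaving out each library. The scripts were tested on simulated data.

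The members, lists and tests were chosen with earlier results of these data known. Named genes are the 9 members, list genes past the threshold, in a list without any the 2 largest changes at a mean of at least 5 CPM, and the 3 genes most like the members. TIGAR, NOCT and NADK2 were found under older symbols through RefSeq synonyms, RPEL1 was not analysed here, and TKTL1, TKTL2 and ME3 had too few reads. Gene coordinates are not given, since the files' build differs from the reference; promoter windows carry RefSeq's own build.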

Additional observations from a re-analysis of the deposited data

How the results depend on the processing

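In the 13 other settings no enzyme of the 9 passed the threshold, except TKT without control library 1, so the count ran from 0 to 1 when single libraries were left out. The log2 fold changes of PGLS, TKT, ME1, IDH1 and NADK kept their sign in all 13, and that of TALDO1 did not turn but came to 0.00 without control library 1. PGD turned to -0.03 with the strand-class term. RPIA turned to -0.01 with total counts, -0.03 with the strand class, 0.00 (just below 0 before rounding) without co-culture library 3 and -0.01 without control library 3, with 0.06 the highest value when single libraries were left out. RPE turned to 0.01 without control library 2 and 0.03 without control library 3, with -0.09 the lowest. The count over all tested genes was 704 (55.1% higher), 164 with the replicate block, 29 with the strand class, and from 65 (without control library 2) to 3069 (without control library 1) when single libraries were left out. Total counts moved the median gene by -0.04 and gave 882 genes, 35.1% higher. The count over the pathway lists was 2, with 4 in DESeq2 (where the count over all genes was 1032), 0 with the strand class and 0 (without control library 2) to 10 (without control library 1) when single libraries were left out. The causes were not tested. Deviations of same-numbered libraries correlated at -0.071, -0.19 and -0.18 across genes, and no library correlated best with its own number. These correlations are weak and cannot show whether the replicate numbers pair the samples. The replicate block left the calls of the enzymes, NADSYN1 and TXNRD2 on the same side. Depth limits the 9 enzymes little, since each had at least 578 reads per library.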
